A study of Drosophila melanogaster with 3 samples.

Results

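The neural and glial genes described here are 30 genes of Drosophila melanogaster, listed by name for their known roles in the nervous system, out of 13968 protein-coding genes in the annotation. All 30 symbols were found. They fall into 22 early regulators, which select, divide or specify neural and glial cells, and 8 genes of differentiated neurons. The data are 3 biological replicates of a chromatin immunoprecipitation with sequencing (ChIP-seq), all of 1 group: whole embryos of mixed sex, 0 to 24 h old, from a stable transgenic line that expresses chiffon (chif) with GFP at its C-terminus. The strain name carries the transcript chif-RB, which the note on the fusion names for replicate 1 only. An antibody against GFP recovered the fusion, here called chif-eGFP, after sonication to fragments of 200 to 800 bp. The lists were all made against 1 shared control. No library from embryos without the tag was analysed here, so recovery that does not depend on the fusion cannot be told apart from binding. A gene was called bound when the summit of a region in the authors' thresholded list lay within 500 bp of any of its annotated transcription start sites (TSSs). The set has no control group, so no test was made, and counts of members stand beside the share of all protein-coding genes called in the same way.

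Neural cells of the fly embryo arise where proneural transcription factors give groups of ectodermal cells the competence to become neuroblasts and the Notch pathway lets only some of them do so. Neuroblasts then divide asymmetrically, handing proteins such as Numb, Prospero and Brat to the daughter that differentiates, while gcm and repo direct glial fate. Genes for neuronal RNA-binding proteins, synaptic vesicles and the axonal cytoskeleton come on later, once neurons are born. In other species the counterpart of Chiffon is Dbf4, which activates the replication kinase Cdc7, and part of the fly protein has also been tied to the histone acetyltransferase Gcn5. A whole embryo holds many cell types, so binding in few cells and weak binding in many cells cannot be told apart.

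chif-eGFP lay at the promoters of 10 of the 30 neural and glial genes (33.3%), against 20.6% of all protein-coding genes. The 10 were the transcription factor genes Dr, scrt, SoxN, nerfin-1, pros and gcm, the asymmetric division genes insc, brat and numb, and the neuronal RNA-binding gene elav. Early regulators held 9 of these promoters out of 22 (40.9%), and differentiated-cell genes held 1 out of 8 (12.5%), with no test of the difference. The list of all 30000 regions called on the pooled reads reached the promoters of 25 members (83.3%), against 52.3% of all protein-coding genes. It reached 20 of 22 early regulators (90.9%) and 5 of 8 differentiated-cell genes (62.5%). Most members thus had a listed region at the promoter. Many of these regions ranked below the thresholded list, which is made up of the 5035 pooled regions of highest signal. The authors name the pooled list as peaks and background, so a region below the threshold may be background and is not a binding call.

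**Figure D1:**
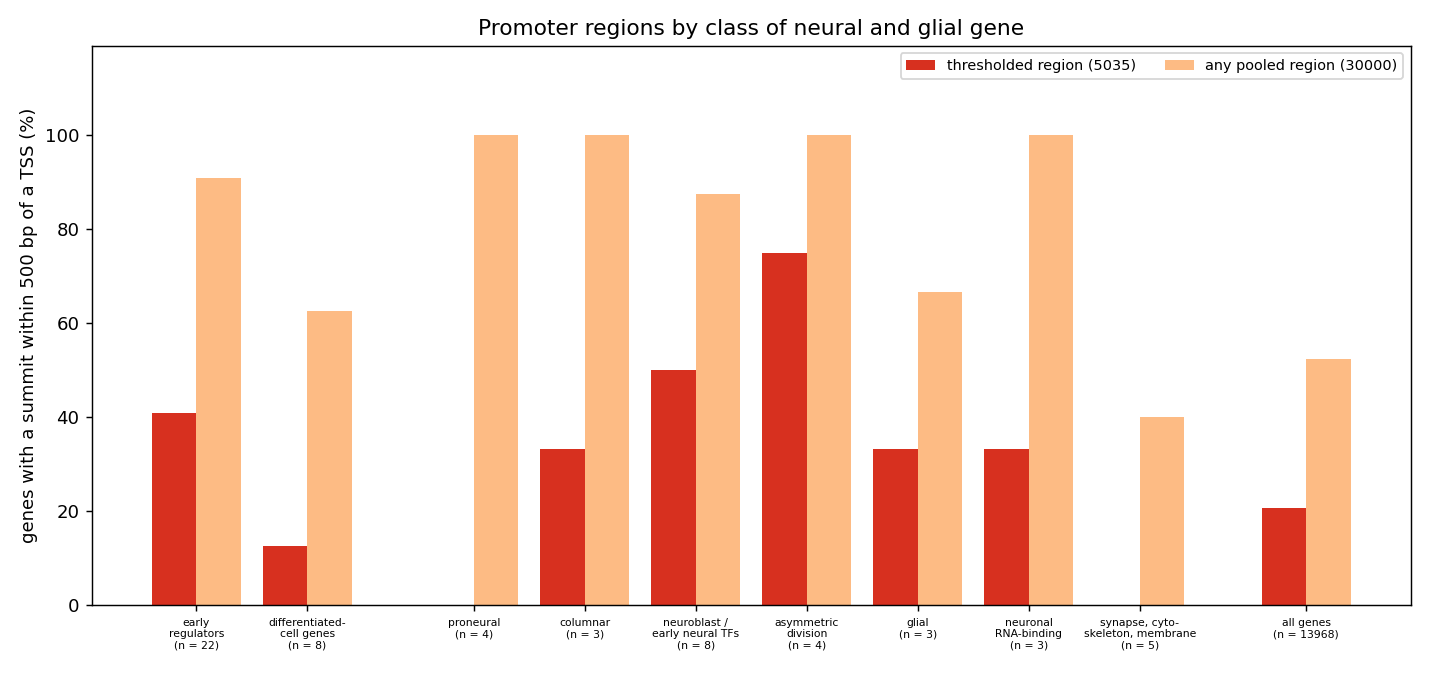
Bars give the percentage of genes with a summit within 500 bp of a TSS, in the thresholded list (red) and in the pooled list of 30000 regions (orange), for early regulators and differentiated-cell genes, for the 7 classes of members, and for all protein-coding genes. Early regulators stand at 40.9% and 90.9%, differentiated-cell genes at 12.5% and 62.5%, and all genes at 20.6% and 52.3%.

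The signal that the authors' caller gave to a region describes its height within 1 list. At the 10 bound promoters it ran from 111 to 982 with a median of 128, against a median of 195 over all bound protein-coding genes and a lowest thresholded signal of 106. Of the 10 promoters, elav and numb had the strongest regions, and most of the others stood near the end of the list. The sequences of 5 windows of 200 bp are shown because they hold the summits of the strongest promoter region of a member, the strongest in the early class, the strongest region in a member's intron, and 2 of the weaker promoter regions. They are RefSeq's Release 6 sequence, read on the strand of the gene, and no annotated exon overlaps them. Capitals mark 3 short motifs on either strand: CANNTG, the E-box that proneural and other bHLH proteins recognise, GAGAG, the core of the GAGA factor site, and CGATA, which the DREF site TATCGATA contains. The elav window is chrX:523384-523583 on the minus strand and holds none of these. The numb window is chr2L:9449588-9449787 on the plus strand, with CGATA, the E-box CAGCTG and 2 copies of GAGAG on the opposite strand. The window in the brat intron is chr2L:19165050-19165249 on the plus strand, with CGATA and GAGAG once each. The Dr window is chr3R:29556169-29556368 on the plus strand, with 3 overlapping copies of GAGAG. The nerfin-1 window is chr3L:908691-908890 on the plus strand, and its single match is the E-box CAGCTG, as in numb.
elav promoter: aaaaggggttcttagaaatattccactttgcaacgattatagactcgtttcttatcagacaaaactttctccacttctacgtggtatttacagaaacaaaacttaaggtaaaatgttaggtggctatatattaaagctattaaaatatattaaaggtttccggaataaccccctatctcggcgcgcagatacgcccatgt
numb promoter: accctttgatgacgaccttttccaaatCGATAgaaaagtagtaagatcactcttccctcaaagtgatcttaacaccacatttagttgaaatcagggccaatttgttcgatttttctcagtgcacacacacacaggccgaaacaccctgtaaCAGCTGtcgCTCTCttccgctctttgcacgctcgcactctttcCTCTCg
brat intron: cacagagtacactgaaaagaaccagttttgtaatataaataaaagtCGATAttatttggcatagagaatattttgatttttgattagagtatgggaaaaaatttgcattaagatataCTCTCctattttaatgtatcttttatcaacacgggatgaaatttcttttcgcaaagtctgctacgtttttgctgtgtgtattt
Dr promoter: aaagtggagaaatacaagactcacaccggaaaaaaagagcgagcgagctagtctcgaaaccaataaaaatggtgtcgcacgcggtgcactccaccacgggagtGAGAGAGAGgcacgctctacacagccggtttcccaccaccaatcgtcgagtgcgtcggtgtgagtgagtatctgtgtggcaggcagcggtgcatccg
nerfin-1 promoter: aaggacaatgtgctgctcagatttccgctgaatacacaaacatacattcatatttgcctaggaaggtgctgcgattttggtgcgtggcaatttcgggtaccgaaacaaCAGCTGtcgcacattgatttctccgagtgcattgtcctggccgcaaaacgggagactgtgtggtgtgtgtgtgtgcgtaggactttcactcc

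None of the 4 proneural genes was bound. These are ac, sc, l(1)sc and ase of the achaete-scute complex, all of which encode bHLH transcription factors. All 4 had a pooled region at the promoter below the thresholded list, with signals of 41.6 at ac, 65.9 at sc, 65.1 at l(1)sc and 38.2 at ase and ranks between 9188 and 21494. No replicate placed any of them among its own 5035 strongest regions, and replicate 2 listed no region at any of the 4 promoters. The nearest thresholded summit lay 2074 bp upstream of l(1)sc with a signal of 118, and 2683 bp upstream of ase with a signal of 115. At sc and ac the nearest summits were 11587 and 24620 bp away, so these genes had no thresholded region within 10 kb.

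Of the 3 columnar genes, which encode homeodomain proteins that divide the neuroectoderm from ventral to dorsal, only Dr (FBgn0000492, chr3R:29556386-29565244) was bound. Its summit lay 117 bp upstream of the TSS with a signal of 128, rank 3961. The promoter ranked 2511 in replicate 1, 22504 in replicate 2 and 4533 in replicate 3, so replicate 2 stood far below the others. The ventral gene vnd and the intermediate gene ind had pooled signals of 56.1 and 65.2 at their promoters and no thresholded region within 10 kb.

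The transcription factors of neuroblasts and early neural cells held 4 bound promoters out of 8. scrt (FBgn0004880, chr3L:3983896-3994003), a zinc finger gene of the Snail family expressed in neurons and their precursors, had its summit 314 bp upstream of the TSS with a signal of 188, rank 2374. Its promoter ranked 3441, 4186 and 1706 in replicates 1, 2 and 3, within the top 5035 each time. pros (FBgn0004595, chr3R:11328480-11407627), the homeodomain gene whose product ends self-renewal in neuroblast daughters, had a signal of 187, rank 2382. Its summit lay 20 bp downstream of an internal TSS, 44308 bp into a gene of 79148 bp. Replicates 1 and 3 ranked that promoter 1292 and 3004, and replicate 2 listed no summit in the region. The best region of replicate 2 within 500 bp of any pros TSS, rank 7573, lay at the outermost TSS.

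SoxN (FBgn0029123, chr2L:8825645-8829670), a Sox gene of the early neuroectoderm, had its summit 14 bp downstream of the TSS with a signal of 120.3, rank 4325. The promoter ranked 4054 in replicate 1 and 4176 in replicate 3 and was not listed in replicate 2. nerfin-1 (FBgn0028999, chr3L:909112-912319), a zinc finger gene needed for early axon guidance, had the weakest bound promoter, with a signal of 111, rank 4780, and its summit 321 bp upstream of the TSS. It ranked 4627, 2818 and 9479 in replicates 1, 2 and 3, so here replicate 3 was the low one. A stronger region of signal 182 had its summit 521 bp upstream of the same TSS, just outside the 500 bp limit. The highest replicate 3 summit inside the bound region, with a signal of 69.5 and rank 2903, also lies in that neighbour.

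The other 4 genes of this class, dpn, wor, sna and esg, were not bound. The Snail family genes sna and esg came closest, with pooled signals of 97.4 (rank 5608) and 75.2 (rank 7771), 47 and 176 bp downstream of their TSSs. Both reached the top 5035 in replicate 3 only, at ranks 4966 and 3653, against ranks of 7079 and 12873 in replicate 1. wor, another Snail family gene, had a pooled signal of 45.3, and dpn, a bHLH repressor that maintains neuroblasts, had no pooled region at its promoter. Replicates 1 and 3 nevertheless listed a weak region there, at ranks 11976 and 10264.

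The asymmetric division genes held 3 bound promoters out of 4. numb (FBgn0002973, chr2L:9437469-9464184), whose product blocks Notch signalling in the daughter that inherits it, had a signal of 382, rank 736. Its summit lay 142 bp upstream of an internal TSS, 12361 bp into the gene. Its promoter ranked 731, 548 and 816 in replicates 1, 2 and 3, so all 3 placed it in nearly the same position. brat (FBgn0010300, chr2L:19133816-19179758), a translational repressor that stops growth of the daughter cell, had a signal of 128, rank 3948, with its summit 65 bp upstream of the outermost TSS. It ranked 3258, 2633 and 4828 in replicates 1, 2 and 3.

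insc (FBgn0011674), which links cortical polarity to the spindle, had a signal of 124, rank 4150. Its summit lay 105 bp upstream of its TSS. The gene sktl, for a phosphatidylinositol phosphate kinase, has an annotated TSS at the same position, so the region cannot be given to either. It ranked 3840 in replicate 1 and 5929 in replicate 3 and was not listed in replicate 2. mira, the adaptor that carries Prospero and Brat to the basal cortex, was not bound and had a pooled signal of 75.7, rank 7692, with the summit 4 bp from a TSS.

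Of the 3 glial genes, gcm (FBgn0014179, chr2L:9579498-9581745), the switch from neuronal to glial fate, was bound, with a signal of 115, rank 4567, and its summit 14 bp upstream of the TSS. It ranked 4137 in replicate 1 and 3536 in replicate 3 and was not listed in replicate 2. Its paralogue gcm2 fell short at a pooled signal of 82.8, rank 6863, although replicate 1 ranked it 4630. repo, the homeodomain gene that marks nearly all glia of the embryo apart from those of the midline, had no region at its promoter in the pooled list or in any replicate's list.

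Among the 8 differentiated-cell genes the promoter of elav (FBgn0260400, chrX:509235-523226) stood apart in rank. elav encodes a nuclear RNA-binding protein of all neurons. Its region, chrX:523306-523658, had a signal of 982, rank 96 of 5035, with the summit 258 bp upstream of the TSS. Replicates 1, 2 and 3 gave it signals of 337, 225 and 410.1 at ranks 103, 101 and 92. No other member's promoter ranked higher in any of the 3 lists, and numb came next in each. With a limit of 250 bp from a TSS in place of 500 bp, elav, scrt and nerfin-1 would not have been called bound.

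The 2 relatives of elav, fne and Rbp9, were not bound and had pooled signals of 54.4 and 45.1 at the promoter, ranks 12015 and 16224. None of the 5 genes for synaptic, cytoskeletal and membrane proteins was bound. nSyb and Syt1, for the vesicle proteins neuronal Synaptobrevin and Synaptotagmin 1, had no region at the promoter in any list. brp, for an active zone scaffold, had 1 only in replicate 2, at rank 18883. futsch, for a microtubule-binding protein of axons, had a pooled signal of 41.5. Appl, for the fly relative of the amyloid precursor protein, had a pooled signal of 56.4 and reached the top 5035 in replicate 3 alone, at rank 3949.

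**Figure D2:**
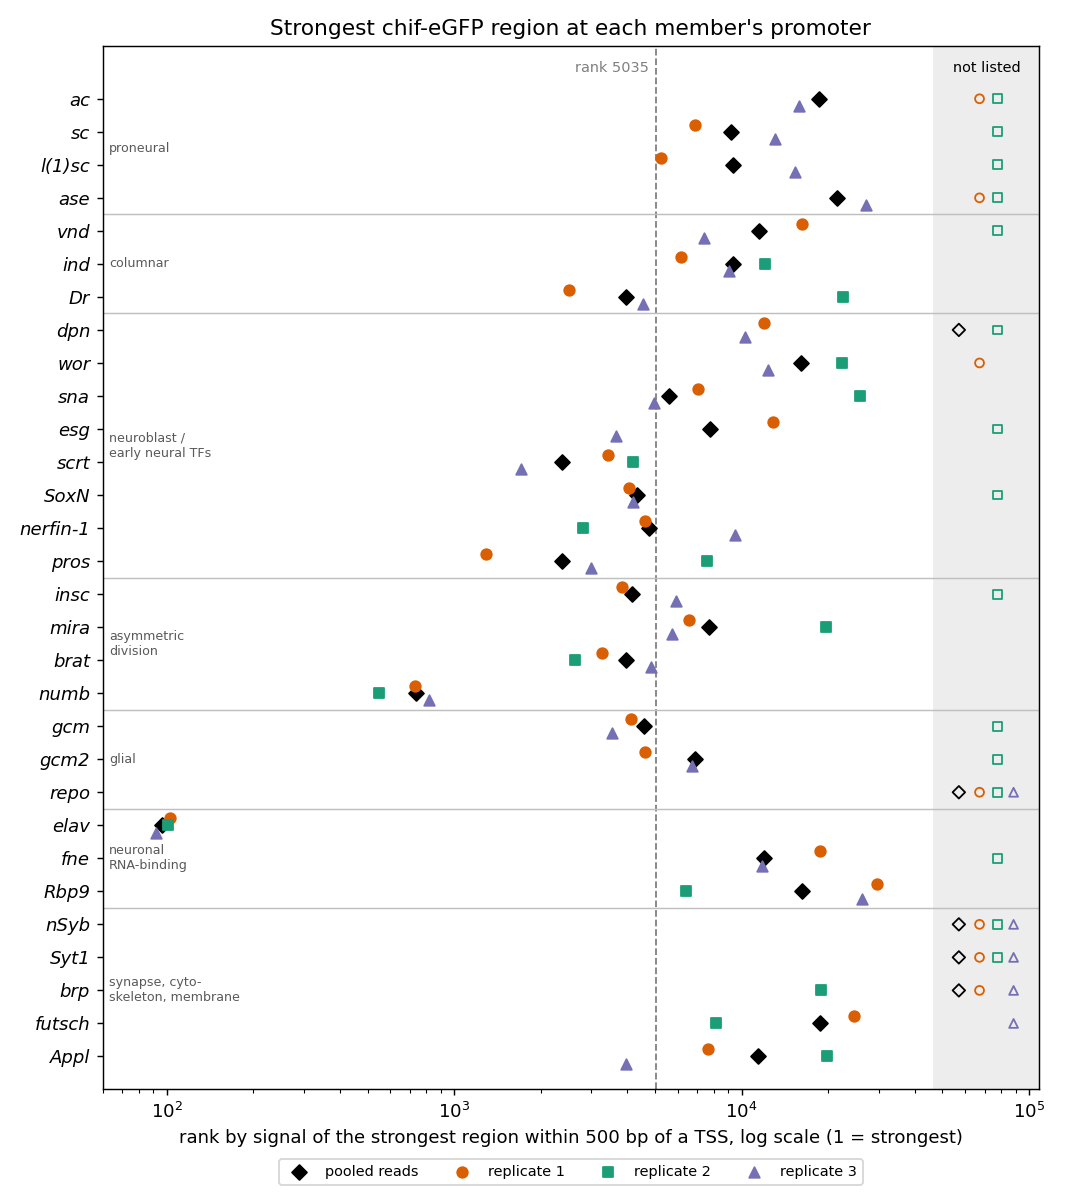
For each of the 30 members, points give the rank by signal of the strongest region within 500 bp of a TSS in the pooled list and in replicates 1, 2 and 3, on a log axis with 1 as the strongest; open symbols at the right mark lists with no such region, and the dashed line is rank 5035. elav lies near rank 100 in all 4 lists and numb between 548 and 816, most early regulators gather around the dashed line, and nSyb, Syt1 and repo are not listed anywhere.

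The members' promoter calls differed between replicates, and replicate 2 made the fewest. Among the 5035 strongest regions of each replicate, here called its top regions, 11 members had a promoter region in replicate 1 (36.7%), 5 in replicate 2 (16.7%) and 11 in replicate 3 (36.7%). The shares of all protein-coding genes were 21.1%, 15.9% and 20.9%, so the members stood above the background in replicates 1 and 3 and close to it in replicate 2. The mean over replicates was 9.0 ± 3.46 members (SD, n = 3). Early regulators gave 10, 4 and 9 of these calls in replicates 1, 2 and 3 and differentiated-cell genes 1, 1 and 2. The 5 members called in replicate 2 were brat, elav, nerfin-1, numb and scrt.

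The same 5 members remained when a bound region had to hold a top summit of all 3 replicates, which is 16.7% of members against 11.3% of all protein-coding genes. Early regulators then counted 4 of 22 (18.2%). Of these, nerfin-1 met the rule by a replicate 3 summit outside its 500 bp limit, as its promoter ranked 9479 in replicate 3. Dr, SoxN, pros, insc and gcm dropped out, as replicate 2 had no top summit in any of these regions, nor replicate 3 in that of insc. With the first 10000 regions of the pooled list in place of 5035, the calls were 16 of 22 early regulators (72.7%), 1 of 8 differentiated-cell genes (12.5%) and 33.3% of all protein-coding genes. In the 2517 thresholded regions of highest signal, 3 of 22 early regulators were left (13.6%), against 11.4% of all protein-coding genes. The share of early regulators was thus well above that of all genes in the thresholded list and the first 10000 pooled regions. It was close to it in the 2517 regions of highest signal. In replicate 2 alone it was also close, 18.2% against 15.9%, and in regions held by all 3 replicates it was 18.2% against 11.3%. The share of differentiated-cell genes, 1 or 2 of 8 in each of these lists, was below that of all genes in the thresholded list. It was also below in replicates 1 and 2 (12.5% against 21.1% and 15.9%) and above in replicate 3 (25.0% against 20.9%). In the 2517 strongest regions elav alone placed it close to the share of all genes (12.5% against 11.4%).

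**Figure D3:**
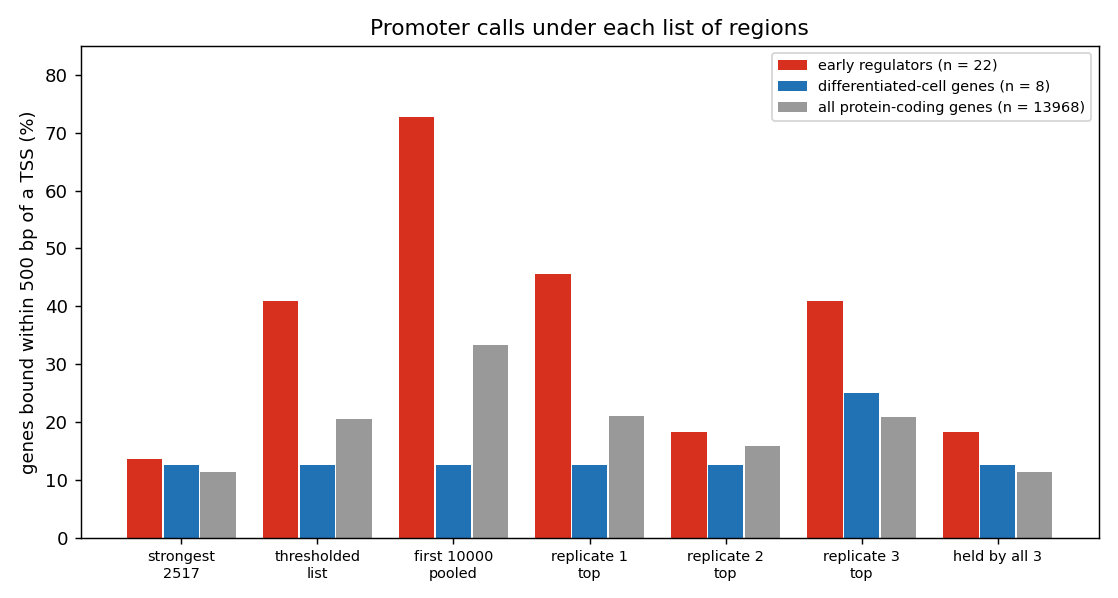
Bars give the percentage of early regulators, differentiated-cell genes and all protein-coding genes with a summit within 500 bp of a TSS under 7 lists of regions. Early regulators reach 72.7% in the first 10000 pooled regions and 18.2% in replicate 2 and in the regions held by all 3 replicates, while all genes stand at 33.3%, 15.9% and 11.3%.

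Of the 20 unbound members, 15 had a pooled region at the promoter (75.0%), against 39.9% of unbound protein-coding genes. The ranks of these regions ran from 5608 at sna to 21494 at ase, with a median of 11377, close to the median of 11739 over all unbound genes with such a region. By count, unbound members thus had a listed region more often, and those regions were no higher in the list. As the pooled list also holds background, these regions are not binding calls. The dividing line itself fell between nerfin-1, rank 4780, and sna, rank 5608.

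Thresholded regions in and around the members numbered 63, of which 10 were the promoter regions, 13 lay in introns, 1 in an exon, 22 upstream and 17 downstream within 10 kb. An intron region was a summit inside the gene, in none of its exons and over 500 bp from its TSSs. They were found in 7 members (23.3%), namely pros, insc, brat, numb, elav, fne and Rbp9, against 7.14% of all protein-coding genes. Members are longer than most genes, with a median length of 5775 bp against 2164 bp, and longer genes hold more regions. Among members of 10 kb or longer, 7 of 13 had an intron region (53.8%), against 37.9% of all genes of that length. The 3 neuronal RNA-binding genes and the 3 asymmetric division genes of that length all had at least 1. None of the synaptic, cytoskeletal and membrane genes did, although 4 of these 5 are that long.

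A region in the gene or within 10 kb of it was found at 23 of 30 members (76.7%), against 64.1% of all protein-coding genes. Among members of 10 kb or longer the count was 11 of 13 (84.6%), against 74.4% of all genes of that length. By this measure early regulators reached 16 of 22 (72.7%) and differentiated-cell genes 7 of 8 (87.5%). Among genes of 10 kb or longer the shares were 83.3% and 85.7%. When a region counted only for the gene whose TSS is nearest, 12 of 22 early regulators (54.5%) and 3 of 8 differentiated-cell genes (37.5%) were left, so the order of the classes depended on that rule. The 7 members with no region within 10 kb were ac, sc, vnd, ind, sna, mira and futsch. Of the 39 regions upstream or downstream of members, 19 had their summits within 500 bp of the TSS of another gene, and for 12 the nearest TSS was that of a member.

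**Figure D4:**
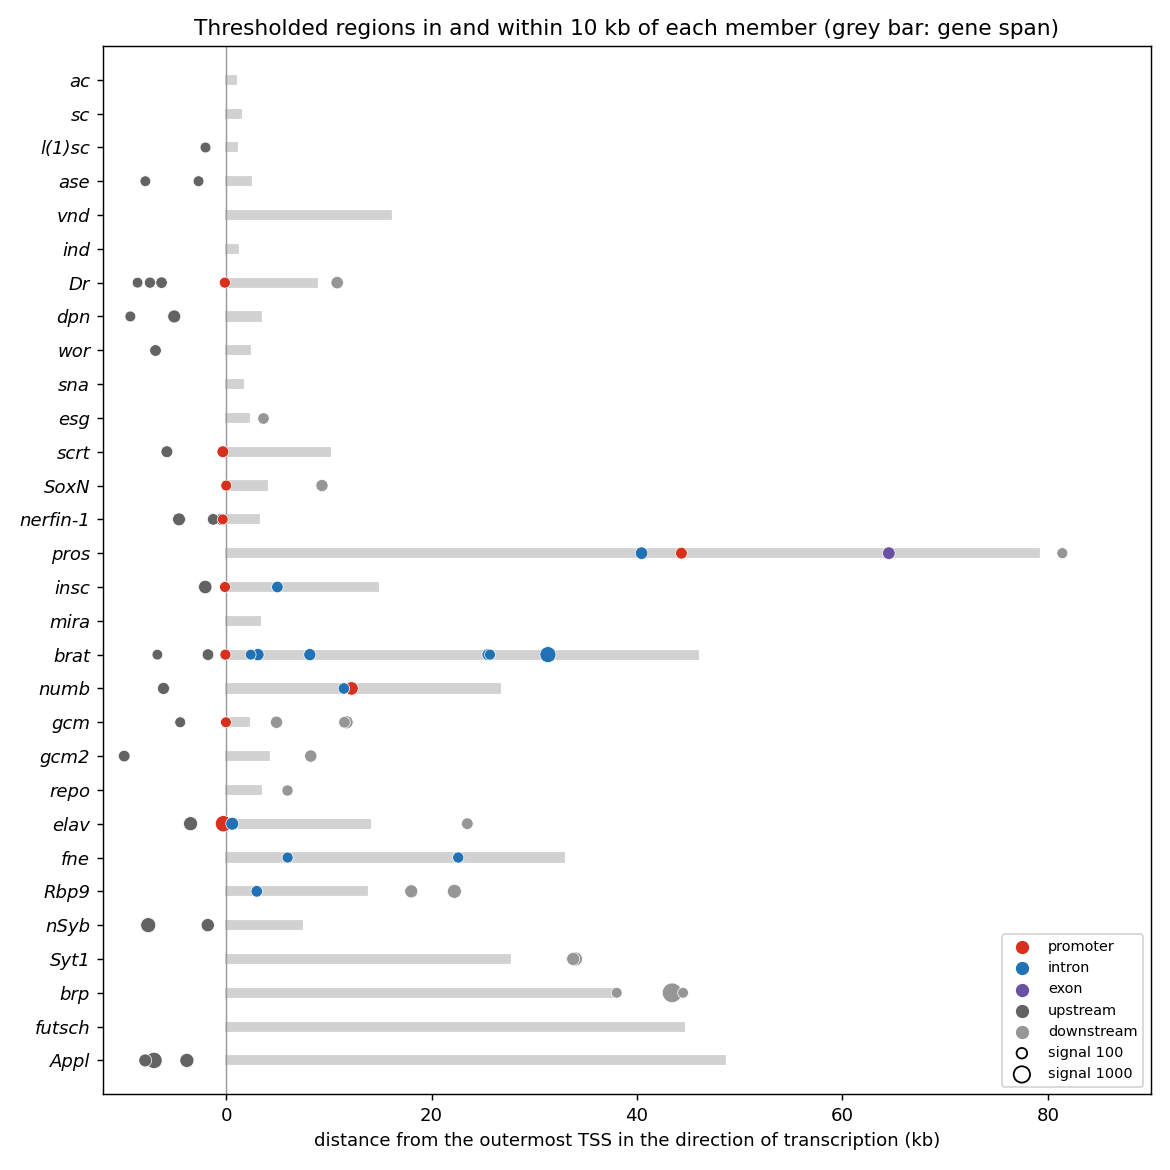
Each row is a member drawn from its outermost TSS at 0 in the direction of transcription, in kb, with the gene span in grey and the summits of thresholded regions as points sized by signal and coloured by position. brat carries 9 regions, 6 of them in introns, while futsch and vnd, also long genes, carry none.

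brat held the densest group of regions, 9 within 10 kb, of which 6 lay in introns. The strongest, chr2L:19164982-19165309, had a signal of 911, rank 112, and ranked 137, 151 and 91 in replicates 1, 2 and 3. Its summit, in the brat intron sequence shown above, lay 717 bp upstream of an internal brat TSS, so it misses the promoter limit but was far stronger than the promoter region of signal 128. The other 5 intron regions of brat had signals of 236, 226, 193, 121 and 111. For those of 236, 226 and 111 the nearest TSS was that of Polr1D, not brat. Upstream of brat, the regions of signal 175 and 108 lay 101 and 133 bp from the TSSs of AsnRS and l(2)37Cd. The regions of signal 193 and 121 overlap and hold the same top summit of replicate 2. Intron regions of all members had signals of 111 to 911 with a median of 172.

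elav carried an intron region of signal 308, rank 1106, 597 bp downstream of its TSS, and a region of signal 484, rank 459, 3458 bp upstream. The upstream region is shared with Appl, which runs the other way from 3817 bp beyond it. The nearest TSS to it is that of CG4293, at 3165 bp. The elav promoter and intron regions also lie within 10 kb of Appl, and those 3 regions are all that Appl has. fne held intron regions of signal 140.1 and 128, and Rbp9 held 1 of signal 172, with its summit 841 bp downstream of a TSS. pros held an intron region of signal 265, 3858 bp upstream of its bound TSS, and the single exon region, of signal 280. numb held an intron region of signal 161, 891 bp upstream of its bound TSS.

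Several of the strongest regions near differentiated-cell genes sit at the promoters of neighbours. The region of highest signal within 10 kb of any member, 2287 and rank 11, lay 5624 bp past the end of brp and 231 bp from the TSS of CG1888. Upstream of nSyb the regions of signal 672 and 358 lay 131 bp from the TSS of alphaCOP, a coat protein gene, and 177 bp from that of Bgb, which encodes a partner of Runt proteins. Downstream of Syt1 the regions of signal 489 and 329 lay 260 and 48 bp from the TSS of aph-1, a gamma-secretase gene. Downstream of Rbp9 the regions of signal 466 and 333 lay 129 and 100 bp from the TSSs of CG9641 and gammaTub23C, a gamma-tubulin gene. Counting a region only for the gene whose TSS is nearest left 15 of 30 members with a region within 10 kb (50.0%), against 23.1% of all protein-coding genes. The share among genes of 10 kb or longer was not counted by this rule, and members are longer than most genes.

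Around early regulators the strongest regions outside promoters and introns lay near insc and gcm. The first, of signal 387 and rank 715, had its summit 2029 bp upstream of the TSS position that insc shares with sktl. The second, of signal 338, lay downstream of gcm, 255 bp from the TSS of brwl. nerfin-1 had 3 regions upstream besides its promoter region, at 521, 1253 and 4582 bp with signals of 182, 178 and 308. The nearest TSS to the last of these was that of mat, at 1632 bp. Dr had 3 upstream, at 6283, 7412 and 8618 bp with signals of 167, 138 and 111, and a stronger one downstream of the gene with a signal of 256. For all 4 regions Dr is the gene of the nearest TSS. dpn, wor, esg, gcm2 and repo had no promoter call but had 1 or 2 thresholded regions within 10 kb. Some of these also sit at the promoters of neighbours. The stronger region upstream of dpn, of signal 319, lay 107 bp from the TSS of pnut. The region nearest repo, of signal 139.7, lay 3 bp from the TSS of CG7156, and that nearest gcm2, of signal 242, lay 32 bp from the TSS of GlcAT-S.

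The replicates held the 63 regions about as often as thresholded regions at large. Top summits of replicates 1, 2 and 3 lay in 54, 44 and 54 of them (85.7%, 69.8% and 85.7%), against 84.9%, 69.5% and 88.4% of all thresholded regions. All 3 replicates held 38 (60.3%), against 55.9% of all. Replicate 2 held 5 of the members' 10 promoter regions, against 63.8% of all promoter regions, 12 of their 13 intron regions, against 74.8% of all intron regions, and 27 of their 40 other regions, against 72.7% of all others. Replicate 1 held 10, 10 and 34 of these regions, and replicate 3 held 9, 12 and 33. Here the members' regions were sorted by the member's own TSS, and regions at large by the TSS of any gene. Of the 39 member regions upstream or downstream, 19 lay within 500 bp of the TSS of another gene. The promoter and other regions of members are thus not like sets to those at large. Replicate 2 was lowest at the members' own promoters and at promoter regions at large, with no test of the difference.

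In windows of 200 bp around the summits, the 63 member regions together held E-boxes about as often as thresholded regions at large, while by count CGATA was less frequent and GAGAG more frequent. Both strands were searched throughout, each CAGGTG is counted among the E-boxes as well, and each TATCGATA as CGATA too. The E-box CANNTG was in 37 of 63 windows (58.7%), against 60.3% of all thresholded regions, but in 4 of 10 promoter windows, against 60.6% of all promoter regions. CAGGTG was in 2 of 63 (3.17%), against 5.14%, and CAGGTAG, the motif of the early activator Zelda, in 1 (1.59%), against 0.973%. GAGAG was in 23 of 63 (36.5%), against 21.9%, in 8 of 13 intron windows (61.5%), against 22.9% of all regions away from promoters, and in 4 of 10 promoter windows, against 20.7% of all promoter regions. CGATA was in 11 of 63 (17.5%), against 29.1%, and in 2 of 10 promoter windows against 40.4% of all promoter regions. TATCGATA was in 1 window (1.59%), at the promoter of brat, against 3.65% of all thresholded regions and 7.66% of all promoter regions.

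The members' promoter windows were also richer in G and C, with a median of 47.2% (range 36.0% to 61.5%), against 36.5% over all 2245 promoter regions. Member intron windows had a median of 33.5%, and all 63 member windows 35.5%, the same as thresholded regions at large. elav, with the strongest region, had the lowest value of the 10 promoters, 36.0%, and SoxN the highest, 61.5%. Summits of bound members lay upstream of the TSS in 8 of 10 cases, at a median of -111 bp (SD 128 bp, n = 10 genes), against -123 bp over all bound protein-coding genes.

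Other genes of neural development, 77 found of 78 named in 6 lists, had 24 bound promoters (31.2%), against 20.6% of all protein-coding genes. When a bound region had to hold a top summit of all 3 replicates, 8 of the 77 were left, against 11.3% of all protein-coding genes. The polarity and spindle proteins of asymmetric division were bound in 8 of 14 cases (57.1%), with the highest signals at par-6 (466), dlg1 (354) and aurA (307), which encode a Par complex subunit, a cortical scaffold and the Aurora A kinase. The Notch pathway was bound in 7 of 13 cases (53.8%), led by 3 Enhancer of split genes, bHLH repressors that Notch activates. These were E(spl)m3-HLH with a signal of 444, E(spl)m7-HLH with 434 and E(spl)mdelta-HLH with 228. E(spl)mbeta-HLH was bound with 149, while E(spl)m5-HLH, E(spl)m8-HLH and E(spl)mgamma-HLH were not bound. Glial genes were bound in 4 of 10 cases, led by moody, a receptor gene of the blood-brain barrier, with a signal of 796, rank 162, and ranks of 227, 116 and 121 in replicates 1, 2 and 3. Gli, a septate junction gene, had 212, and pnt, an ETS factor gene with 10 intron regions, had 121.

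The remaining lists held fewer. Proneural genes and their bHLH partners were bound in 2 of 7 cases (28.6%), da, the common partner of the proneural proteins, with a signal of 164 and Oli with 111. Neuroblast temporal and identity factors were bound in 2 of 13 cases (15.4%), grh with 113 and eg with 107. A pooled region lay at the promoter of 12 of the 13, against 52.3% of all protein-coding genes. Synaptic, channel and transmitter genes were bound in 1 of 20 cases (5.0%), Nrx-1, for the adhesion protein Neurexin, with a signal of 269. Of these 20, 6 had a pooled region, against the same 52.3%. As the pooled list also holds background, such regions are not binding calls. The order of the lists was not the same in each replicate. Among the top regions of replicate 1, Notch pathway genes counted 10 of 13 and polarity and spindle genes 8 of 14, while synaptic, channel and transmitter genes counted 2 of 20 and proneural genes and partners 0 of 7. In the same order, the counts were 4, 5, 1 and 1 in replicate 2 and 7, 8, 1 and 3 in replicate 3. The shares of all protein-coding genes were 21.1%, 15.9% and 20.9% in replicates 1, 2 and 3.

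**Figure D5:**
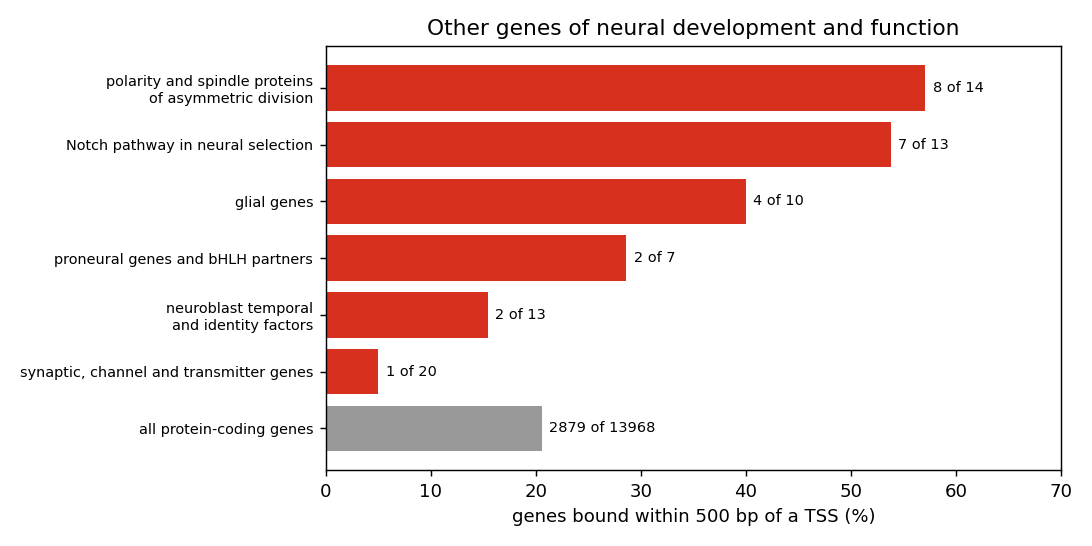
Bars give the percentage of genes bound within 500 bp of a TSS in 6 lists of other neural genes and in all protein-coding genes, with the counts beside each bar. Polarity and spindle genes stand at 57.1%, synaptic, channel and transmitter genes at 5.0% and all genes at 20.6%.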

How the data were processed

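Peak lists on dm6 were used, for 3 replicates and their pooled reads. Per the notes deposited with the samples, the authors called each list against 1 shared control and derived the thresholded list with the irreproducible discovery rate. Which aligner and caller made them is not given in the sources used here. The signal is the authors' own deposited value per region, used only within a list. The lists hold no reads, so the depth is unknown. The thresholded list equals the 5035 pooled regions of highest signal. Lists on dm3 were not used.

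Genes came from Ensembl release 115 (BDGP6.54) and sequence from RefSeq's Release 6, the assembly of dm6. A TSS is the 5' end of any transcript of a gene. Offsets count from the nearest TSS of the gene in the direction of transcription. A replicate held a region when a top summit lay inside it. Counts were made with Python 3.11.15, numpy 2.4.6, pandas 2.3.3 and matplotlib 3.10.9, after the promoter call was tested on simulated summits. The intron, 10 kb and nearest-TSS calls were not tested in this way. The members and the 6 other lists were chosen with earlier results of these data known. Signal, rank, summit offset and replicate ranks were given for bound members. For the 10 strongest regions outside promoters and for up to 3 bound genes of highest signal per list, at least the signal was given. Dl was the 1 listed symbol that was not analysed here. Alternatives varied the list of regions, the TSS distance, the transcripts, the gene distance, the assignment of shared regions and the class of repo.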

Additional observations from a re-analysis of the deposited data

How the results depend on the processing

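The share of differentiated-cell genes bound was below that of all protein-coding genes in the thresholded list (12.5% against 20.6%), where elav was the 1 gene bound. It was also below in replicate 1 (12.5% against 21.1%), replicate 2 (12.5% against 15.9%) and without replicate 2 (12.5% against 16.6%). The same held in the first 10000 pooled regions (12.5% against 33.3%) and at a TSS distance of 250 bp (0.0% against 16.5%). It was above in replicate 3 (25.0% against 20.9%) and at 1000 bp (25.0% against 23.8%). In the 2517 thresholded regions of highest signal (12.5% against 11.4%) and in regions backed by all 3 replicates (12.5% against 11.3%), elav alone placed it close to the share of all genes. Of the alternative counts and offsets, 59 stayed within 1.5 times the main count or within the spread and 28 did not, and of the promoter signals of single genes 15 stayed and 2 did not. The count of bound members (10) became 4 in those 2517 regions, 17 in the first 10000 pooled regions and 5 in replicate 2 alone, and leaving out 1 replicate gave 5 to 9. The count of early regulators (9) became 3, 16 and 4 under the same lists and 4 to 8 with 1 replicate left out. Without replicate 1 or replicate 3 both counts were at the low end, since both replicates left must then hold the region and replicate 2 is 1 of them. Regions backed by all 3 replicates gave 5 members and 4 early regulators, by summit or by an overlap of 1 bp. Differentiated-cell genes bound (1) became 2 in replicate 3 alone, 0 at a TSS distance of 250 bp and 2 at 1000 bp. Members with an intron region (7) became 3 in those 2517 regions, and members with a region within 10 kb (23) became 15 by nearest TSS. The median summit offset of -111 bp ranged from -258 to -117 bp with 1 replicate left out. The count for the other neural genes (24), whose alternatives were chosen after seeing the data, became 11 in those 2517 regions, 37 in the first 10000 pooled regions, 14 in replicate 2 alone, 10 to 19 with 1 replicate left out, and 8 or 9 when backed by all 3. At 1000 bp the promoter signals of nerfin-1 and brat became 182 and 911. No paired analysis was possible because the samples form 1 group. The lists hold no reads, so weak regions carry no counting error and members close to the threshold cannot be separated from it.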
